A study of Mus musculus with 9 samples.

Results

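Robo4 and Flt4 were followed in testis RNA of Tmem203 null and wild-type (WT) mice together with 8 other genes of blood vessel and lymph vessel lining: Robo1, Flt1, Kdr, Egfl7, Tek, Tie1, Pecam1 and Cdh5. Robo4 and Flt4 were chosen by their rise in this same comparison, so their values are given as a description with no test. The other 8 were named as relatives of Robo4 and Flt4 or as endothelial genes, to ask whether general endothelial markers moved with them. Every probe set that the array annotation gives to a single one of these genes was taken, which made 20 probe sets. Of these, 16 reached a log2 signal of 5 on at least 1 array, the detection limit of the study's methods, and each of the 10 genes had at least 1 of them. The arrays measured 16180 genes in all by that limit.

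Endothelial cells line every vessel, and they are read in a tissue through adhesion proteins of their contacts, such as PECAM-1 and VE-cadherin, and through receptor tyrosine kinases that few other cells carry. Vascular endothelial growth factors (VEGFs) act through the receptors encoded by Flt1, Kdr and Flt4, and angiopoietins act through the receptor encoded by Tek, with the protein of Tie1 as its partner. Flt4, which encodes VEGFR-3, is best known as the VEGF-C receptor of lymphatic endothelium, and Robo4 is a roundabout receptor of endothelium that restrains vessel permeability. In the testis, blood vessels run in the interstitium between the seminiferous tubules, among Leydig cells and macrophages.

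The arrays held RNA of 5 Tmem203 null testes and 4 WT testes, all from C57BL/6J mice 24 weeks old that received no treatment. The null allele is a germline change in which the start codon of Tmem203 was replaced, and it is not restricted to a cell type. The study describes the profiling as done on mice of both genotypes, with the left and right testis of a mouse collected separately. No label ties an array to a mouse, so arrays may share a mouse. The p-values are therefore given for the spread between arrays. Tmem203 read 9.10, 9.13, 9.13, 9.06 and 9.10 in null testes and 9.67, 9.91, 9.93 and 9.71 in WT testes, a log2 change of -0.70 (SE 0.06, limma adjusted p = 2.87e-04). All null arrays lay below all WT arrays. Where that probe set lies relative to the replaced stretch is not given in the sources used here, so its fall does not by itself check the labels. Values are log2 signals per probe set after Robust Multichip Average (RMA), and a difference of 1 is a doubling. Array medians lay between 6.96 and 7.05. A probe set passed at a limma p under 0.05 after Benjamini-Hochberg adjustment over 45037 probe sets.

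The sequences just upstream of the start sites are shown because the genes did not move together and these bases are where their promoters can be compared. The RefSeq promoter table of GRCm38.p6 held 8 of the 10 genes in 10 windows, since Egfl7 has 3 start sites. Each line below is the 250 bases before a start site, 5′ to 3′ on the gene's strand. Capitals mark matches on either strand to AGGAAG, taken here as the ETS string, or to a GC box, GGGCGG. The shorter GGAA within the ETS string was not searched, and it also occurs in the printed Flt4 and Kdr windows. ETS factors are regulators of endothelial genes, and GC boxes are bound by SP1-type factors. Robo4 lies at chr9:37401722-37401971 on the plus strand, Flt4 at chr11:49609429-49609678 on the plus strand and Kdr, the closest relative of Flt4 shown, at chr5:75978456-75978705 on the minus strand. The 3 Egfl7 windows lie at chr2:26580833-26581082, chr2:26583615-26583864 and chr2:26586386-26586635 on the plus strand.
Robo4: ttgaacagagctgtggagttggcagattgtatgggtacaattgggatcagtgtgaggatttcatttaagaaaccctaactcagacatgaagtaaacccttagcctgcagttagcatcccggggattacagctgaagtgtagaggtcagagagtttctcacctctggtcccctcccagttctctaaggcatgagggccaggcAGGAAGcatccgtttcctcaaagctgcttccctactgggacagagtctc
Flt4: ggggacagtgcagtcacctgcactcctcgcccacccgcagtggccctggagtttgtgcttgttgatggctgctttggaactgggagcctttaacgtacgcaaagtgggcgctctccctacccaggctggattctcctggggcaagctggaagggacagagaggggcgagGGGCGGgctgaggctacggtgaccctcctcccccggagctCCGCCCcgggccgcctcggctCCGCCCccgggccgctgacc
Kdr: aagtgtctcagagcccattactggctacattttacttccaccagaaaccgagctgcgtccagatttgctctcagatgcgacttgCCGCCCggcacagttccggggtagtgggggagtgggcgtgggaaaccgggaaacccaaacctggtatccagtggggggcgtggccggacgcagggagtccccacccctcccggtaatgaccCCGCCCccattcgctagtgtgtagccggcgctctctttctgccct
Egfl7 start 1: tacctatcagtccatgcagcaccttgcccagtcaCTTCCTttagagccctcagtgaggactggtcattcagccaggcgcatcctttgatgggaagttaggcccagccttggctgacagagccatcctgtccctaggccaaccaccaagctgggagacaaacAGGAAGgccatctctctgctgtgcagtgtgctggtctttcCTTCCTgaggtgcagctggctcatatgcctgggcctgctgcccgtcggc
Egfl7 start 2: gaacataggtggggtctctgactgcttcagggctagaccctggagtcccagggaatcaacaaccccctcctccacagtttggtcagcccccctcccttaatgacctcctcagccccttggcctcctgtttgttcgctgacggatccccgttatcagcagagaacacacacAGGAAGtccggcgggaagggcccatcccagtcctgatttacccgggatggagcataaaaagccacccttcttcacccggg
Egfl7 start 3: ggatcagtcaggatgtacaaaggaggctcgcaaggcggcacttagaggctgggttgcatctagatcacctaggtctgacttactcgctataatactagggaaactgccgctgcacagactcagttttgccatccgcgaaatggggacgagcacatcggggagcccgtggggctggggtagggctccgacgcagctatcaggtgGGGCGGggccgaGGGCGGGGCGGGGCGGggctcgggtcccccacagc
The ETS string occurred in 29.5% of all 32851 promoter windows of this length, the GC box in 32.7% and a SOX string, AACAAT, in 9.4%. Robo4 had 1 ETS string, 49 bases before its start site, and no GC box. Flt4 had no exact ETS string and 3 GC boxes, starting 81, 41 and 20 bases before its start site. Kdr had 2 GC boxes, 166 and 45 bases before its own. The upstream windows of Robo4 and Flt4 therefore shared none of the 3 exact strings searched, which does not cover shorter or variant forms. The first Egfl7 window held 3 ETS strings and the next held 1. The last held no exact ETS string and 4 GC boxes, of which 3 overlap end to end. Of the 8 genes, 4 had the ETS string, 4 a GC box and 1, Tek, the SOX string. GC content was 49.6% for Robo4 and 68.4% for Flt4, against a median of 52.4% over all windows. These are matches of letters only.

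Robo4 was higher in null testes. Its single probe set (1426206_at) read 8.16, 7.89, 7.57, 7.73 and 7.89 in null testes and 6.05, 6.51, 5.84 and 5.63 in WT testes. The lowest null array lay more than 1 log2 unit above the highest WT array. The means were 7.84 ± 0.22 in null testes and 6.01 ± 0.38 in WT testes (SD, n = 5 and 4), a difference of 1.84 or 3.57-fold.

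Flt4 was higher in null testes at both of its probe sets. The first (1421442_at) read 8.68, 8.51, 8.54, 8.32 and 8.59 in null testes and 7.61, 7.61, 7.49 and 7.66 in WT testes, a difference of 0.93 or 1.91-fold. The second (1444052_at) read 8.70, 8.68, 8.56, 8.54 and 8.62 in null testes and 7.57, 7.28, 7.13 and 7.45 in WT testes, a difference of 1.26 or 2.4-fold. At neither probe set did the groups overlap. Robo4 spread more within each group than Flt4 did at 1421442_at, where the SD was 0.13 in null testes and 0.07 in WT testes. The 3 probe sets of Robo4 and Flt4 were the only ones of the 16 above the 1.5-fold limit of the methods in the upward direction, a limit that 0.978% of all 29238 detected single-gene probe sets passed upward. Since the genes were chosen from that contrast, nothing is read from this count.

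**Figure D1:**
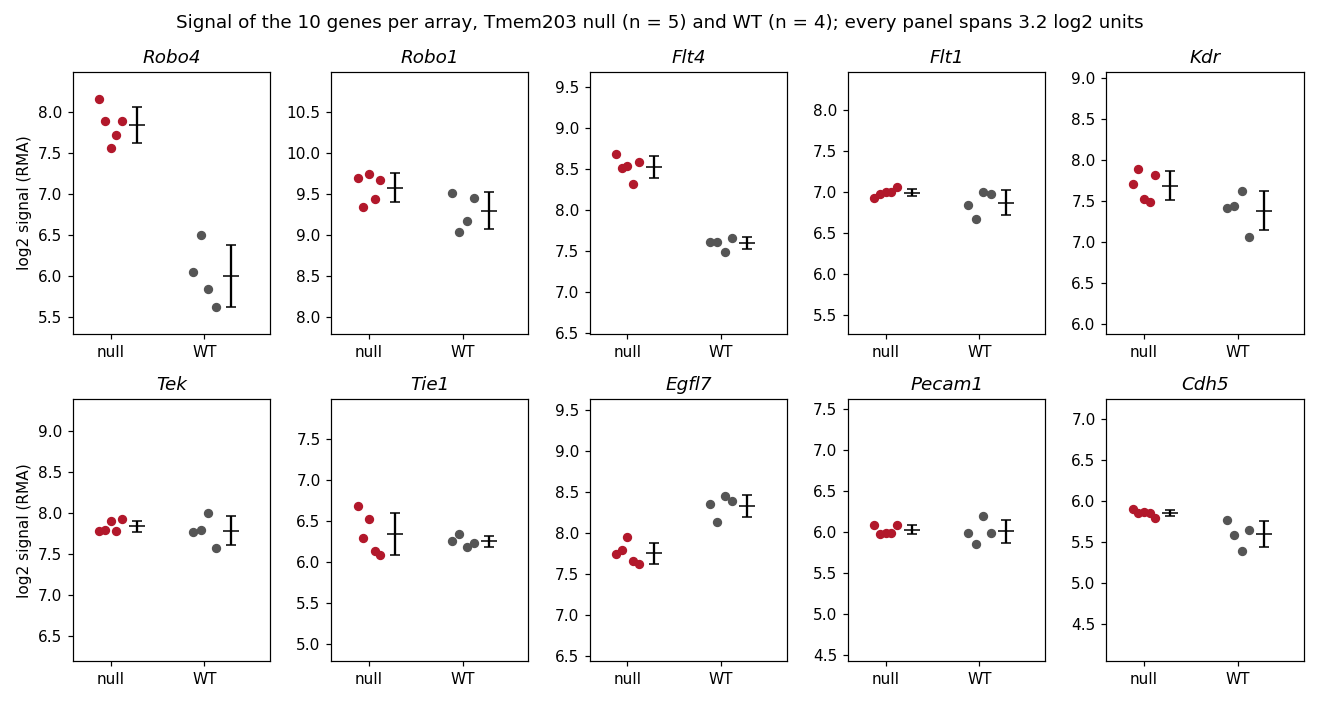
Log2 signal (vertical axis, RMA) of each of the 10 genes on every array, with Tmem203 null (red, n = 5) left of WT (grey, n = 4) and the mean with SD beside the points, for the probe set of each gene with the highest mean signal. Robo4 and Flt4 stand apart upward in null testes, Egfl7 stands apart downward, and Cdh5 is separated by a narrow margin. The other 6 genes overlap between the genotypes.

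The other VEGF receptors gave no call. Kdr, which encodes VEGFR-2, the main signalling receptor for VEGF-A, read 7.71, 7.89, 7.52, 7.49 and 7.82 in null testes and 7.41, 7.44, 7.62 and 7.06 in WT testes. The change was 0.30 (95% interval 0.04 to 0.57, limma adjusted p = 0.157), and WT replicate 3 lay within the null range. Flt1, which encodes VEGFR-1, a receptor and decoy for VEGF-A, had 3 detected probe sets with changes of 0.13, 0.08 and -0.13 (adjusted p = 0.320 to 0.631 by limma). Their upper 95% bounds were 0.28, 0.27 and 0.10.

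The angiopoietin receptors overlapped between the genotypes. Tek, which encodes TIE2, read between 7.78 and 7.92 in null testes and 7.76, 7.79, 8.00 and 7.57 in WT testes, a change of 0.06 (95% interval -0.12 to 0.24, limma adjusted p = 0.722). Tie1 read 6.69, 6.29, 6.53, 6.14 and 6.09 in null testes and 6.26, 6.34, 6.18 and 6.24 in WT testes, a change of 0.09 (95% interval -0.17 to 0.36, adjusted p = 0.677). All 4 WT values of Tie1 fell inside its null range.

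The adhesion genes differed little. Pecam1, the endothelial junction protein also known as CD31, averaged 6.03 ± 0.05 in null testes and 6.01 ± 0.14 in WT testes (SD, n = 5 and 4), a change of 0.02 (95% interval -0.13 to 0.17, limma adjusted p = 0.896). Cdh5, which encodes VE-cadherin, read 5.90, 5.85, 5.87, 5.85 and 5.80 in null testes and 5.77, 5.59, 5.39 and 5.65 in WT testes at 1433956_at. The groups did not overlap, by a margin of 0.03 between null replicate 5 and WT replicate 1, and the change of 0.26 (95% interval 0.09 to 0.42) did not pass (adjusted p = 0.0624). Without WT replicate 1 it passed, with a change of 0.31 and an adjusted p of 0.031. Differences can be compressed on the RMA scale at signals this close to the detection limit.

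Robo1, a roundabout receptor known from axon guidance and expressed well beyond endothelium, read 9.69, 9.34, 9.74, 9.43 and 9.67 in null testes and 9.51, 9.03, 9.17 and 9.45 in WT testes at its detected probe set. The change was 0.28 (95% interval 0.02 to 0.55, limma adjusted p = 0.185), and the groups overlapped. The 4 undetected probe sets (2 of Robo1, 1 of Flt1 and 1 of Cdh5) stayed at or below 4.79 on every array, with changes between -0.26 and 0.02.

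Egfl7, an endothelial secreted protein that is the host gene of miR-126, changed in the opposite direction to Robo4 and Flt4. At 1451428_x_at it read 7.75, 7.79, 7.95, 7.66 and 7.62 in null testes and 8.35, 8.14, 8.45 and 8.39 in WT testes, a change of -0.58 (SE 0.08) or 1.49-fold lower in null testes (limma adjusted p = 0.00301). At 1451427_a_at it read 7.01, 7.31, 7.08, 7.06 and 7.06 in null testes and 7.78, 7.50, 7.62 and 7.75 in WT testes, a change of -0.55 (SE 0.08, adjusted p = 0.00285). In both, every null array lay below every WT array. Another probe set, 1435823_x_at, gave 6.35 ± 0.07 in null testes and 6.68 ± 0.17 in WT testes, a change of -0.33 (adjusted p = 0.0325), which was lost on leaving out any null replicate, WT replicate 1 or WT replicate 4 (adjusted p = 0.0538 to 0.077). The last, 1421335_a_at, gave -0.19 (95% interval -0.35 to -0.02, adjusted p = 0.161). The _x_at probe sets hold oligonucleotides that can also match other transcripts. Egfl7 lies on chromosome 2, as Tmem203 does, with 48 measured genes between them, of which 2 were higher and 5 lower in null testes with a median change of -0.07, where 8.03% of all 16180 genes were higher and 6.82% lower. The part of this position in the result was not tested.

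Across the 8 genes other than Robo4 and Flt4, 13 probe sets were detected. These 8 genes were not named for their change, but they were named with earlier results of these data known. None passed upward, 3 passed downward, all of Egfl7, and 10 did not pass. Over all detected single-gene probe sets, 5.7% passed upward and 4.23% downward. That split depends on centring, since 1667 passed upward and 1237 downward on the deposited scale and 1239 upward and 1548 downward after each array was centred on its median. In 1 of the 13 (Cdh5) all null arrays lay above all WT arrays, and in 3 (Egfl7) all lay below, where 7.82% and 7.76% of all detected single-gene probe sets did so. The median change of the 13 was 0.06, against -0.01 over all detected single-gene probe sets, with a range of -0.58 to 0.30. The highest upper 95% bound among them was 0.57, for Kdr. None of them passed the 1.5-fold limit downward on the deposited scale, as 0.722% of all did, although 2 Egfl7 probe sets passed it after median centring.

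A mean over Flt1, Kdr, Egfl7, Tek, Tie1, Pecam1 and Cdh5, each at its brightest probe set, gave a general endothelial level per array. It read 6.98, 6.94, 6.97, 6.85 and 6.91 in null testes and 6.91, 6.83, 6.98 and 6.84 in WT testes. The groups overlapped, and the means of 6.93 ± 0.05 in null testes and 6.89 ± 0.07 in WT testes (SD, n = 5 and 4) differed by 0.04. That value averages Egfl7, at -0.58, with 6 genes whose changes lay between 0.02 and 0.30. Without Egfl7, a choice made after seeing the data, the mean read 6.85, 6.80, 6.81, 6.71 and 6.80 in null testes and 6.67, 6.61, 6.73 and 6.58 in WT testes. The difference was then 0.14, and WT replicate 3 alone lay above the lowest null array. Robo4 minus the mean of all 7 was 0.92 ± 0.21 in null testes and -0.88 ± 0.40 in WT testes, a difference of 1.80. Flt4 minus the same mean was 1.60 ± 0.09 in null testes and 0.70 ± 0.13 in WT testes, a difference of 0.89 at its brighter probe set, 1421442_at. Without Egfl7 in the mean, these differences were 1.70 for Robo4 and 0.79 for Flt4. With all 7 genes, leaving out 1 array at a time gave 1.69 to 1.98 for Robo4 and 0.83 to 0.93 for Flt4. In RNA of whole testes, fewer cells of a type and less RNA per cell cannot be told apart.

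**Figure D2:**
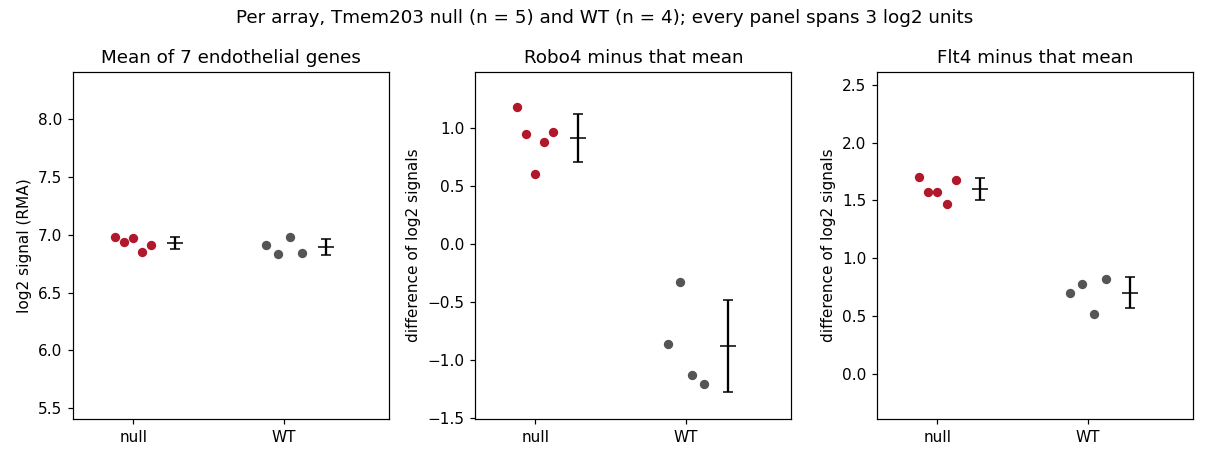
Per array, the mean log2 signal of 7 endothelial genes (left), Robo4 minus that mean (middle) and Flt4 minus that mean (right), with Tmem203 null (red, n = 5) left of WT (grey, n = 4) and the mean with SD beside the points; every panel spans 3 log2 units. The endothelial mean, which includes the lower Egfl7, overlaps between genotypes with a difference of 0.04, whereas the Robo4 and Flt4 panels are separated by 1.80 and 0.89.

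A wider list of general endothelial markers held few calls. Of 36 genes on the list, 34 were measured and 2 (Gpihbp1 and Tal1) were below the detection limit on every array. Each of the 34 was read at the probe set of smallest p. None was higher, 1 was lower and 33 did not pass, and the median change was -0.04, against -0.03 over all genes, with the shares of 8.03% higher and 6.82% lower as above. The list's mean signal lay between 6.92 and 7.02 over the null arrays and between 6.85 and 7.11 over the WT arrays. The gene that fell was Vwf, von Willebrand factor of endothelial storage granules, at 8.63, 8.47, 8.60, 8.58 and 8.72 in null testes and 9.10, 8.90, 8.84 and 9.02 in WT testes (change -0.37, SE 0.07, limma adjusted p = 0.013). Its null arrays all lay below its WT arrays. The highest change on the list was 0.30, for Gpr182 (95% interval -0.08 to 0.67, adjusted p = 0.328 by limma). Gpr182 reached the detection limit on only 2 arrays, with means of 4.98 in null testes and 4.69 in WT testes. Selp, the P-selectin of activated endothelium and platelets, had the lowest at -0.44 (95% interval -0.74 to -0.15, adjusted p = 0.0691).

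**Figure D3:**
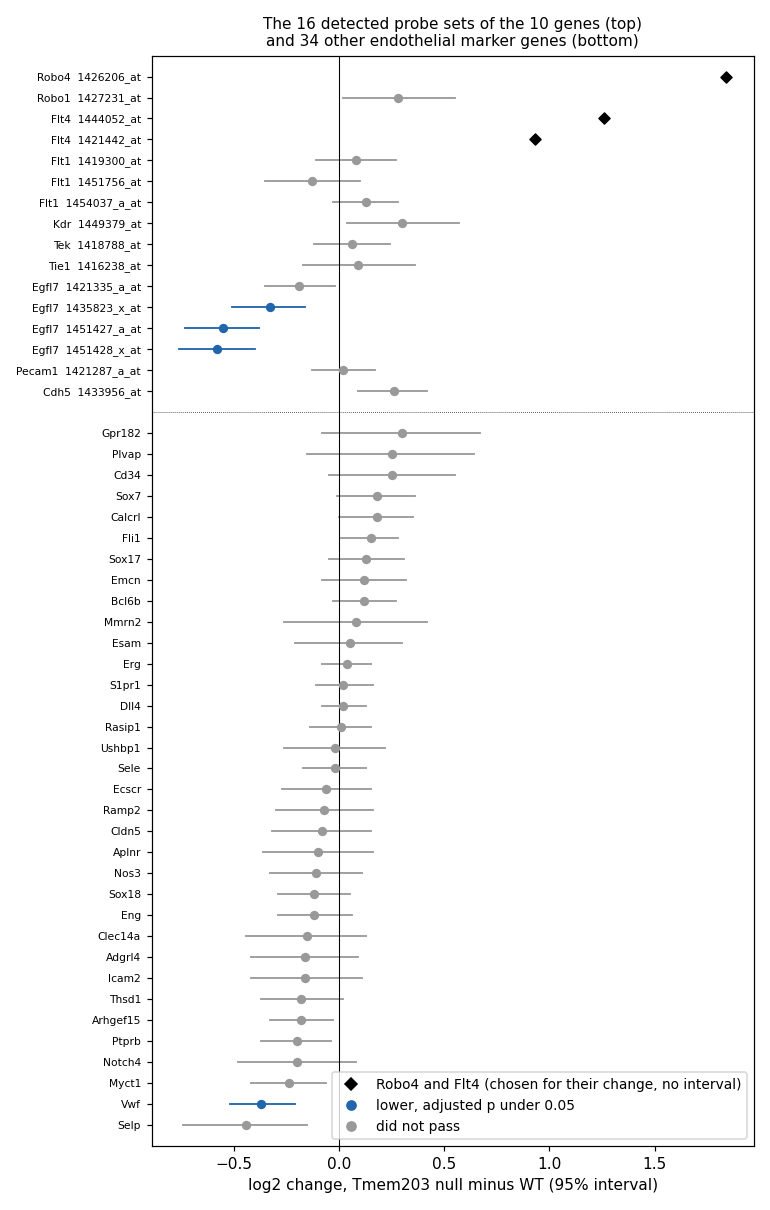
Log2 change, Tmem203 null minus WT (horizontal axis), of the 16 detected probe sets of the 10 genes (top) and of 34 further endothelial marker genes (bottom); lines are 95% intervals, and Robo4 and Flt4 (diamonds) carry none because they were chosen for their change. The Robo4 and Flt4 points, between 0.93 and 1.84, lie to the right of every other point, and 3 Egfl7 probe sets and Vwf (blue) passed downward.

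Lymphatic markers were listed because Flt4 marks lymphatic endothelium in the adult. Of 12 measured genes, 1 was higher, none was lower and the median change was 0.06. Over all genes 8.03% were higher and 6.82% lower, with a median change of -0.03. These shares also stand beside the list counts that follow. The gene that rose was Pdpn, podoplanin of lymphatic endothelium, which epithelial and stromal cells also carry. It read 11.13, 10.79, 10.59, 10.61 and 10.82 in null testes and 10.09, 10.27, 10.36 and 9.61 in WT testes (change 0.71, SE 0.16, adjusted p = 0.0232 by limma). Prox1, the transcription factor that specifies lymphatic identity, changed by 0.48 at one probe set (95% interval -0.13 to 1.08, adjusted p = 0.329) and by -0.10 at the other. Lyve1, a hyaluronan receptor of lymphatic endothelium and some macrophages, changed by -0.07 (95% interval -0.37 to 0.24). Fgl2 at 0.22 and Gata2 at -0.20, next after Pdpn by p, did not pass (adjusted p = 0.0535 and 0.0591). The widest of these intervals, that of Prox1, includes changes as large as that of Flt4 at 1421442_at.

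Among the VEGF ligands and their helpers, 2 of 9 genes were higher, none lower, and the median change was 0.09. Nrp1, neuropilin-1, a co-receptor of VEGF and semaphorins, rose at its main probe set to 9.82, 9.72, 9.70, 9.50 and 9.81 in null testes, against 9.29, 9.18, 9.40 and 9.14 in WT testes (change 0.46, SE 0.08, limma adjusted p = 0.00771). Ccbe1, a secreted protein needed for VEGF-C processing, was 0.42 higher at 1437385_at (adjusted p = 0.0193) and 0.43 higher at 1439327_at, but 0.45 lower at 1445127_at (change -0.45, adjusted p = 0.0203), so its probe sets disagree. The ligands of Flt4 gave no call. Vegfc changed by -0.14 (95% interval -0.43 to 0.15) and Vegfd by 0.36 (95% interval 0.04 to 0.69, adjusted p = 0.170). Vegfa, Vegfb and Pgf, ligands of Kdr and Flt1, changed by -0.04, -0.09 and 0.06, and Nrp2, the co-receptor of VEGFR-3, changed by 0.09 (adjusted p = 0.429).

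Among the angiopoietins and TIE modulators, 7 genes counting Tek and Tie1 themselves, none was higher and 1 was lower, with a median change of 0.06. Angpt2, the context-dependent antagonist of TIE2, read 6.20, 6.36, 6.38, 6.39 and 6.48 in null testes and 6.79, 6.54, 6.99 and 6.84 in WT testes (change -0.43, SE 0.09, adjusted p = 0.0197 by limma), and the groups did not overlap. Angpt1, the agonist, changed by 0.10 (95% interval -0.15 to 0.35). Angpt4 gave 0.30 (adjusted p = 0.105) and Ptprb, the phosphatase VE-PTP that acts on TIE2, gave -0.20 (adjusted p = 0.129).

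The SLIT-ROBO list held 24 measured genes, Robo4 included. With Robo4 counted, 5 were higher and 1 lower, or 4 and 1 with each gene at its brightest probe set. The median change without Robo4 was 0.11. Slit2, a secreted ligand of roundabout receptors, read 8.94, 8.55, 8.78, 8.78 and 8.49 in null testes and 8.21, 8.02, 8.29 and 8.42 in WT testes (change 0.47, SE 0.11, limma adjusted p = 0.0246). The null arrays all lay above the WT arrays. Slit1 and Slit3 changed by -0.15 and -0.03 and did not pass. Srgap1, whose protein binds ROBO1 inside the cell, fell to 8.26, 8.53, 8.17, 8.42 and 8.18 in null testes, against 9.19, 9.15, 9.10 and 9.32 in WT testes (change -0.88, SE 0.09, adjusted p = 3.84e-04), whereas its relative Srgap3 was 0.41 higher (adjusted p = 0.0312). A second Srgap1 probe set, 1442175_at, gave 0.11 (adjusted p = 0.428). Enah, an actin regulator of the Ena/VASP family, rose by 0.33 at 1424800_at (adjusted p = 0.00438), with other probe sets between -0.11 and 0.36. The adaptor gene Nck2 was 0.28 higher at 1416796_at (adjusted p = 0.0145) and gave -0.02 at its other probe set. Unc5b, a netrin receptor known as a partner of ROBO4, changed by 0.11 (95% interval -0.16 to 0.37).

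Of 16 genes for partners of endothelial junctions, 4 were higher and none lower, with a median change of 0.18. Over all genes 8.03% were higher and 6.82% lower, with a median change of -0.03. With each gene at its brightest probe set, 3 of the junction genes were higher and none lower. Jam2, a junctional adhesion molecule of endothelium that testicular cells also express, read 9.42, 9.16, 9.04, 9.27 and 9.22 in null testes and 8.41, 8.36, 8.51 and 8.17 in WT testes at 1436568_at (change 0.86, SE 0.09, adjusted p = 5.11e-04 by limma). Jup, plakoglobin, rose by 0.69 (adjusted p = 0.00416) and Ctnna1, alpha-catenin, by 0.56 (adjusted p = 9.31e-04). F11r, which encodes JAM-A, rose by 0.26 (adjusted p = 0.041). Most of these genes also serve epithelial junctions, those of Sertoli cells among them. Jam2 was also higher at 1419288_at (change 0.58, adjusted p = 0.0073), while its 3 other probe sets gave -0.13 to 0.05. Esam and Cldn5, junction genes of endothelium that other cells also express, changed by 0.05 (95% interval -0.21 to 0.30) and -0.08 (95% interval -0.32 to 0.15).

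Some lists of other interstitial and tubular cell markers moved with genotype on the same arrays, while other lists held 1 call or none. Of 12 Sertoli cell markers 8 were higher and none lower, with a median change of 0.25, and the list's mean signal was 10.43 to 10.56 in null testes and 10.17 to 10.33 in WT testes. Of 6 Leydig cell markers 4 were higher and none lower, with a median change of 0.43 and a mean signal of 10.56 to 10.79 in null testes and 10.09 to 10.52 in WT testes. Of 10 macrophage markers 3 (Mrc1, Cx3cr1 and Cd163) were higher and none lower, with a median change of 0.25 and a mean signal of 9.15 to 9.33 in null testes and 8.79 to 9.17 in WT testes. Itgam, on the macrophage list, was below the detection limit on every array. Of 8 spermatogonial markers 2 were higher, Gfra1 (change 1.27, limma adjusted p = 5.02e-04) and Kit (0.46, adjusted p = 0.0122), and Sohlh1 was lower (-0.40, adjusted p = 0.00469). With each gene at its brightest probe set, 3 Leydig cell markers and 1 spermatogonial marker were higher. Of 11 mural cell markers, which cover pericytes and smooth muscle, none passed in either direction, and the median change was 0.01. None passed among 8 lymphocyte, 5 platelet and megakaryocyte, 2 red blood cell, 5 adipocyte, 7 round spermatid and 9 elongating spermatid markers. Of 10 spermatocyte markers none was higher and 1 was lower. The difference between the 3′ and 5′ control probe sets of Gapdh, a sign of RNA integrity, was 0.85 ± 0.04 in null testes and 0.93 ± 0.01 in WT testes (SD, n = 5 and 4, two-sided exact permutation p = 0.0238). That of beta-actin was 0.58 ± 0.04 in null testes and 0.60 ± 0.04 in WT testes (exact permutation p = 0.341). The part of these cell types and of RNA integrity in the results for Robo4, Flt4 and Egfl7 was not tested.

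**Figure D4:**
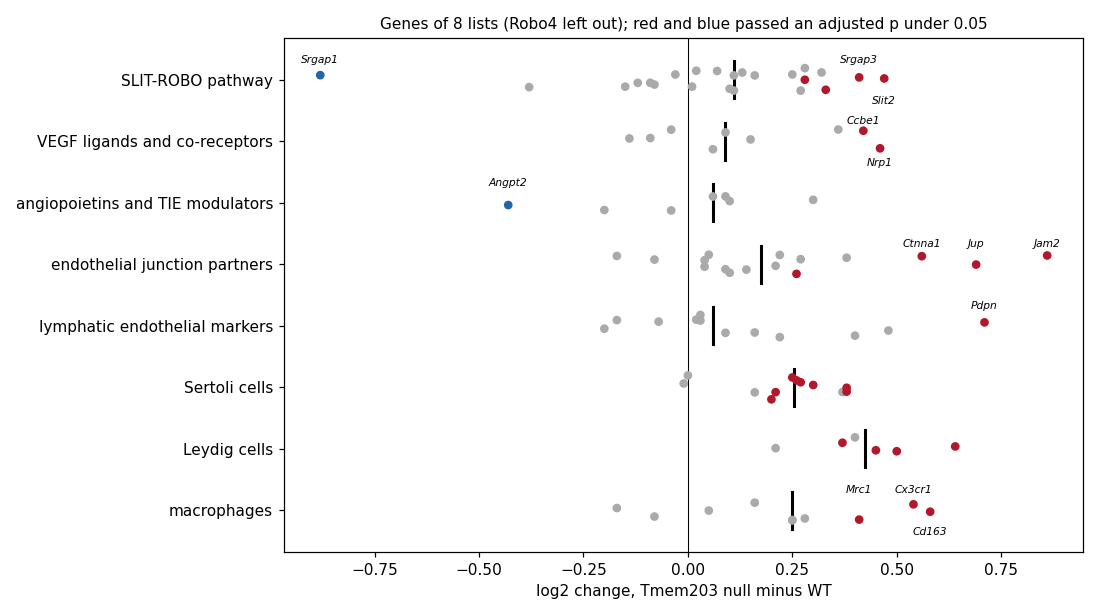
Log2 change, Tmem203 null minus WT (horizontal axis), of each gene of 8 lists, with Robo4 left out; a point is a gene at its probe set with the smallest p, red and blue passed an adjusted p under 0.05 upward and downward, vertical scatter within a row has no meaning, and black bars are list medians. The medians of the Sertoli cell, Leydig cell and macrophage lists lie furthest right, between 0.25 and 0.43. Those of the endothelial junction and SLIT-ROBO lists follow, at 0.18 and 0.11. The VEGF, angiopoietin and lymphatic lists have medians of 0.09, 0.06 and 0.06.

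The genes beside Robo4 and Flt4 in the RefSeq gene order did not share their rise. Robo4 lies between Hepacam and Robo3, and Hepacam, a cell adhesion gene, was lower at 1429023_at (change -0.31, limma adjusted p = 0.0413) and gave -0.19 at 1434727_at (adjusted p = 0.0932). Robo3, a roundabout receptor of commissural axons, gave 0.25 (adjusted p = 0.171) and stood at 5.08 ± 0.07 in null testes and 4.83 ± 0.24 in WT testes, near the detection limit. Msantd2, the gene after Robo3, gave -0.01. On the sides of Flt4, Scgb3a1 gave -0.29 (adjusted p = 0.140), 1700024J04Rik gave -0.03, and the 4 probe sets of Cnot6 gave 0.00 to 0.16. None of these neighbours was higher at the threshold.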

How the data were processed

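Testis RNA of 5 Tmem203 null and 4 WT samples was hybridised to Affymetrix Mouse Genome arrays. The authors deposited RMA values on a log2 scale, 1 per probe set and array, after background adjustment, quantile normalization and summarisation, and retained all arrays. limma, with no version, is the tool in the submitters' processing notes. Scanner values and scan dates were not used here. Null was set against WT by limma 3.58.1 under R 4.3.3, using lmFit and eBayes with no covariate. Adjustment (Benjamini-Hochberg) covered 45037 probe sets, 64 controls having been removed, and the procedure was tested on simulated data. A probe set counted as detected if any array reached a log2 signal of 5, and the methods' own limit adds a 1.5-fold change. Names came from the platform annotation, and 34741 of 34945 single-gene probe sets matched RefSeq by Entrez identifier. A listed gene was counted at its detected probe set of smallest p. The members and the gene lists were chosen with earlier results of these data known. All members are named, with up to 3 genes of smallest p per pathway or endothelial list, any ligand, co-receptor or adaptor of a member, and the measured genes next to Robo4 and Flt4. Gpr182, Esam, Cldn5, Prox1 and Lyve1 were named outside this rule, after their values were seen. Gm34885 and Gm42075, also next to Robo4 and Flt4, had no detected single-gene probe set. Alternatives covered centring, quantile normalization, the variance model, array weights, detection, cross-matching probe sets, the replicate block, each array left out and the methods' t-test. Python 3.11.15 was used for joins, promoter matches and drawing.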

Additional observations from a re-analysis of the deposited data

Results flagged for a closer look

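Egfl7 at 1451427_a_at had a single null array away from the rest. Null replicate 2 read 7.31, and the other 4 null arrays read 7.01 to 7.08, a gap of 0.775 of the group's range. It still lay below the lowest WT array, at 7.50. Of 32 groups of arrays examined, this was the 1 so flagged, and chance flags about 1 in 20.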

How the results depend on the processing

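Egfl7 stayed lower under every alternative run. Robo4 and Flt4 stayed higher, which tests nothing, since both were chosen for their rise on these same arrays. The small changes of 2 members that did not pass reversed: Pecam1 (0.02) gave -0.01 after median centring and -0.03 to 0.08 on leaving out 1 array, negative without WT replicate 2, and Tek (0.06) gave -0.01 to 0.13 on leaving out 1 array, negative without WT replicate 4. Relative to the general endothelial genes, Flt4 gave 0.89 at its brightest probe set, 1.22 at the probe set with the smallest p and 1.05 as a mean over probe sets. Of the members, 3 probe sets passed downward, against 1 without _x_at and _s_at probe sets. The count of member probe sets past 1.5-fold downward was 0, against 2 after median centring, 2 after a further quantile normalization and 1 with array weights, and it was 0 to 2 on leaving out 1 array. Over all detected single-gene probe sets 1667 passed upward, with 900 to 1956 on leaving out 1 array and 898 by the methods' t-test after Benjamini-Hochberg adjustment. Downward 1237 passed, with 726 to 1226 on leaving out 1 array and 1902 by the methods' t-test at an unadjusted p under 0.01. The cause of these moves was not tested.

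The replicate number did not pair the samples: the deviations of same-numbered null and WT arrays correlated at -0.064, 0.078, -0.007 and -0.011. With the replicate number as a block, 593 probe sets passed upward and 419 downward, and 1 member probe set passed downward. Egfl7 at 1451427_a_at then gave an adjusted p of 0.0531 and at 1435823_x_at 0.0667 by limma.

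Precision is limited by 5 and 4 arrays, by probe sets near background, and by probe sets open to other transcripts (Egfl7 _x_at). Those near background include Cdh5, Robo3, Gpr182, Selp, Lyve1 and others on the endothelial and lymphatic lists. Differences can be compressed at such signals.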
